A study of Drosophila melanogaster x Drosophila sechellia and Drosophila melanogaster and Drosophila sechellia with 12 samples.

Results

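RNA editing of the D. melanogaster and the D. sechellia allele was compared inside libraries made from a mixture of both parent species. In such a mixture each transcript had been edited in the cells of its own species, and both alleles were then sequenced in 1 library. Sites belonged to the comparison when each allele had at least 50 reads in both mixed libraries. A site was left out when its pooled level in the D. melanogaster or the D. sechellia libraries reached 95%. Of 1058 sites in the tables, 602 had the coverage, 27 of those were left out by level and 575 remained. They fell on chromosome arms 2L (80 sites), 2R (127), 3L (107), 3R (160), X (92) and chromosome 4 (9), and in 175 clusters. Clusters were formed over all 1058 sites, each site within 1000 bases of the next, so sites left out can link those that remained. Positions are in the dm3 build of the D. melanogaster genome. The tables pair sites with no gene names, so sites are named by position.

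Adar, an RNA-editing enzyme, acts on double-stranded RNA and deaminates adenosine to inosine, which polymerases and ribosomes read as guanosine. Flies carry a single Adar gene, and many of its substrates are transcripts of neuronal genes such as ion channels and synaptic proteins, so heads are a usual tissue for measuring it. The bases around a site and the hairpin it sits in set how well Adar acts on it, and these can differ between alleles (cis), while the amount of Adar and other factors in a cell act on all transcripts there (trans). In a mixture of parents, differences of both kinds can enter the gap between alleles. In an F1 hybrid both alleles meet the same cell.

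The study amplified 493 loci by RT-PCR from heads of female flies 0 to 2 days old and sequenced the products. The libraries used here are D. melanogaster parents (n = 2), D. sechellia parents (n = 2), a mixture of both parents (n = 2) and F1 hybrids of the 2 species (n = 3). Hybrids mutant for D. melanogaster Adar (3 libraries) were not used here. The labels do not give strains, the proportion of the mixture, the step at which the species were combined, or whether replicates came from separate sets of flies, so the spread behind each p-value is that of these libraries and could be technical. A level is the percentage of G among the A and G reads of 1 allele, and a gap is the D. sechellia minus the D. melanogaster level in percentage points.

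The mixed libraries held 251870 and 274714 reads, of which 63.2% and 62.9% were assigned to D. melanogaster. At the 575 sites the balance was more even, with median reads of 130 and 133 for the D. melanogaster allele and 119 and 135 for the D. sechellia allele. The share of D. melanogaster reads ranged from 18.8% to 89.7% between sites, with a median of 48.9%. Across 491 sites this share and the gap had Pearson r = -0.011 and Spearman rho = -0.0625, both measures coming from the same reads. Own-species libraries were deeper, with median pooled reads per site of 704 for D. melanogaster and 623 for D. sechellia, against 261 and 250 for the same alleles in the mixture. The tables give PCR reads and no molecular identifiers, and limits from counts therefore cover counting error only.

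Near the rule's limits, the site 3L 2941426 entered with a pooled D. sechellia level of 94.8%, and 3R 1062054 entered with 94.4%. Just beyond it, 2R 6708460 was left out with 95.3% in D. melanogaster, and 2L 9733349 with 95.9%. The sites 2R 3988206 and 2R 10185499 entered with 50 reads on their thinnest allele, and 2R 2620585 and 2R 8336159 missed with 49.

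Averaged over the 575 sites, the levels of the alleles differed by less than 1 point. The D. melanogaster allele averaged 16.1% and 16.6% in the libraries, and the D. sechellia allele 15.4% and 16.5%. The mean gap was -0.697 points in the first library and -0.0699 in the second, or -0.384 ± 0.444 (SD, n = 2). An exact two-sided paired permutation test over 2 libraries gave p = 0.5, the smallest value the design allows, so the mean gap cannot be called either way. As medians over sites the levels were 6.18% for D. melanogaster and 4.98% for D. sechellia, a difference of -1.20 points. Paired by site, the median gap was -0.0928 points in the first library and 0 in the second.

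Single sites differed much more than the mean. Of the 575 sites, 491 in 155 clusters had a mean level of at least 1% and were tested. At 107 of them (21.8%) the alleles differed past the threshold, in a quasi-binomial logistic regression with the library as a block and Benjamini-Hochberg adjusted p under 0.05. The D. sechellia allele was higher at 44 sites (8.96%) in 29 clusters, and lower at 63 (12.8%) in 38 clusters. With the sites of 95% or more kept in, 122 of 518 (23.6%) passed. The median gap, without sign, was 3.13 points over the 491 sites and 12.4 over the 107. Among those 107, the gap was at least 20 points at 25 sites, from 10 to 20 at 42, from 5 to 10 at 23, and under 5 at 17. The smallest was 2.21 points. In 283 of 491 sites (57.6%) the alleles did not overlap between libraries, and all 107 were among them.

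The number of sites past the threshold rests on how the spread is estimated, because 2 libraries leave 1 residual degree of freedom per site. The fit raised per-site dispersions below 0.05 to 0.05 and then took 1 spread for all sites of like coverage, so a site whose libraries differed widely was not tested against its own spread. Its F tests pooled the residual degrees of freedom of all sites, so very small p-values rest on read counts and a shared spread. The floor of 0.05 was chosen after a first run with a floor of 0.0001 had passed 4 sites (1 in favour of D. sechellia, 3 against). Floors of 0.001 and 0.01 passed 134 and 123. With the F1 libraries added to estimate the spread, 126 sites passed at a floor of 0.05, all 107 among them, and 102 at a floor of 0.0001. The limma fit on arcsine-square-root levels, which uses no such floor, passed 83, of which 77 were among the 107, and a Cochran-Mantel-Haenszel test passed 133. Without the second mixed library 70 sites passed, and without the first 76, in fits where the F1 libraries give the spread, so that the count to set beside these is 126. The lone mixed library is assumed there to vary like the F1 libraries. At an unadjusted p under 0.05 the count was 142. The size of p moved as well: at 3R 1062097 the adjusted p was 1.27e-47 in the main quasi-binomial fit. It was 0.000588 by limma and 0.0481 in the quasi-binomial fit with a floor of 0.0001.

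**Figure D1:**
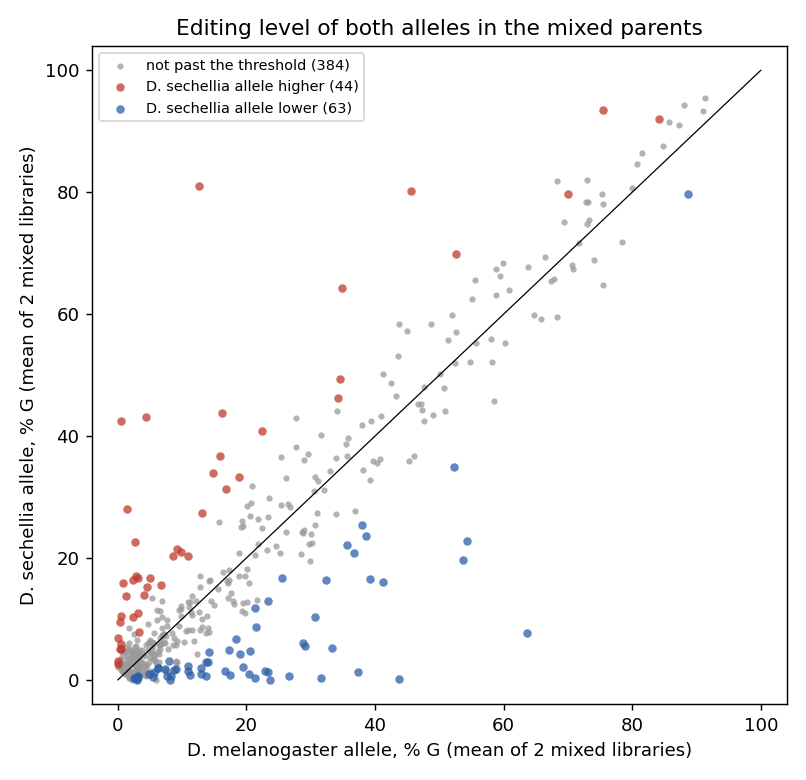
Editing level of the D. sechellia allele (vertical axis, % G) against that of the D. melanogaster allele (horizontal axis, % G), each the mean of 2 mixed libraries, with 1 point for each of 491 tested sites and the line of equal levels. The 44 sites past the threshold in favour of D. sechellia are red, the 63 in favour of D. melanogaster are blue, and the other 384, up to 15.2 points from equal levels, are grey.

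The site with the widest gap in favour of D. sechellia was X 1267594. Its D. melanogaster allele was edited at 15.7% and 9.56% in the libraries, and its D. sechellia allele at 77.8% and 84.3%. The alleles were far apart in both libraries, with a gap of 68.4 ± 8.93 points (SD, n = 2; adjusted p = 2.07e-23, quasi-binomial regression). The D. sechellia allele had the fewer reads there, 54 and 70. At 2L 20872840 the D. melanogaster allele was nearly silent, at 0.575% and 0.493%, against 47.6% and 37.2% for D. sechellia. That gap was 41.9 ± 7.30 points (adjusted p = 4.88e-31), and it passed at every floor tried. At X 3847311 the levels were 3.01% and 5.88% against 44.2% and 42.1%, a gap of 38.7 ± 3.55 points (adjusted p = 9.05e-18). These 3 sites share a pattern of low editing on the D. melanogaster allele and strong editing on the other.

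At other sites both alleles were well edited and still stood apart. At 2R 7335492 the D. melanogaster allele reached 41.2% and 50%, and the D. sechellia allele 73.6% and 86.8% (gap 34.6 ± 3.09; adjusted p = 1.27e-05). At 2L 3762371 the levels were 33.3% and 36.4% against 65.4% and 63.0% (gap 29.4 ± 3.86; adjusted p = 3.1e-13). At 3R 1062054, the highest of the group, they were 74.8% and 76.2% against 92.9% and 94.0% (gap 17.9 ± 0.146; adjusted p = 8.56e-11). The alleles of all these sites are separate in both libraries by the way they were chosen. The other 6 of the 12 widest gaps with the D. sechellia allele higher, at most 2 per cluster, were 3R 1062051 (27.7 points), 2L 13187691 (26.6), 2R 8336228 (20.9), X 3847328 (19.99), 2R 17508581 (19.1) and 2L 18182220 (18.4).

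The gap at 2L 18182220 varied most between libraries among those 12, at 26.1 and 10.6 points, and without the first library it no longer passed (10.6 points; adjusted p = 0.296, quasi-binomial regression with F1 libraries giving the spread). Without the second library, 2R 8336228 fell just short (14.6 points; adjusted p = 0.0507 in the same regression).

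In the opposite direction the widest gap among sites within the rule was at 3L 21327037 (2R 6708460, left out by its level, had a gap of -95.6 points). Its D. melanogaster allele was edited at 61.2% and 66.1%, and its D. sechellia allele at 7.14% and 8.24%, a gap of -56.0 ± 2.65 points (adjusted p = 7.17e-20, quasi-binomial regression). At 3R 1062097 the D. melanogaster allele reached 41.9% and 45.6%, while the D. sechellia allele had 1 G read of 620 (gap -43.6 ± 2.36; adjusted p = 1.27e-47). At 3L 12204771 the levels were 38.2% and 36.5% against 1.89% and 0.746% (gap -36.1 ± 0.424; adjusted p = 1.23e-31). The last 2 sites passed at every floor tried, and so did 3R 1062100, with 30.4% and 32.8% against 2 G reads of 613 (gap -31.2 ± 1.21; adjusted p = 3.17e-33).

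Some D. sechellia alleles were lower without being silent. At 2L 3762337 the levels were 53.4% and 54.1% against 19.7% and 19.5%, so the libraries agree within 1 point on each allele (gap -34.2 ± 0.665; adjusted p = 7.56e-19). At 3R 191196 they were 55.4% and 53.1% against 21.7% and 23.7% (gap -31.6 ± 2.98; adjusted p = 3.15e-10). In the D. sechellia libraries 5.24% of reads at 3R 191196 were assigned to D. melanogaster, and the part of read assignment in its gap was not tested. The remaining 6 of the 12 widest gaps with the D. sechellia allele lower were 2L 11796346 (-28.2 points), 2L 13187842 (-26.1), 2L 6002057 (-25.2), 2L 1609982 (-23.7), 2R 4771250 (-23.5) and 2L 6002117 (-22.7). The site 2L 6002117 did not pass without the first library (-16.7 points; adjusted p = 0.069, quasi-binomial regression). Over all 24 sites named by this rule, in 17 clusters, adjusted p ran from 1.27e-47 to 0.00728, and 20 of the 24 did not pass at the floor of 0.0001.

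**Figure D2:**
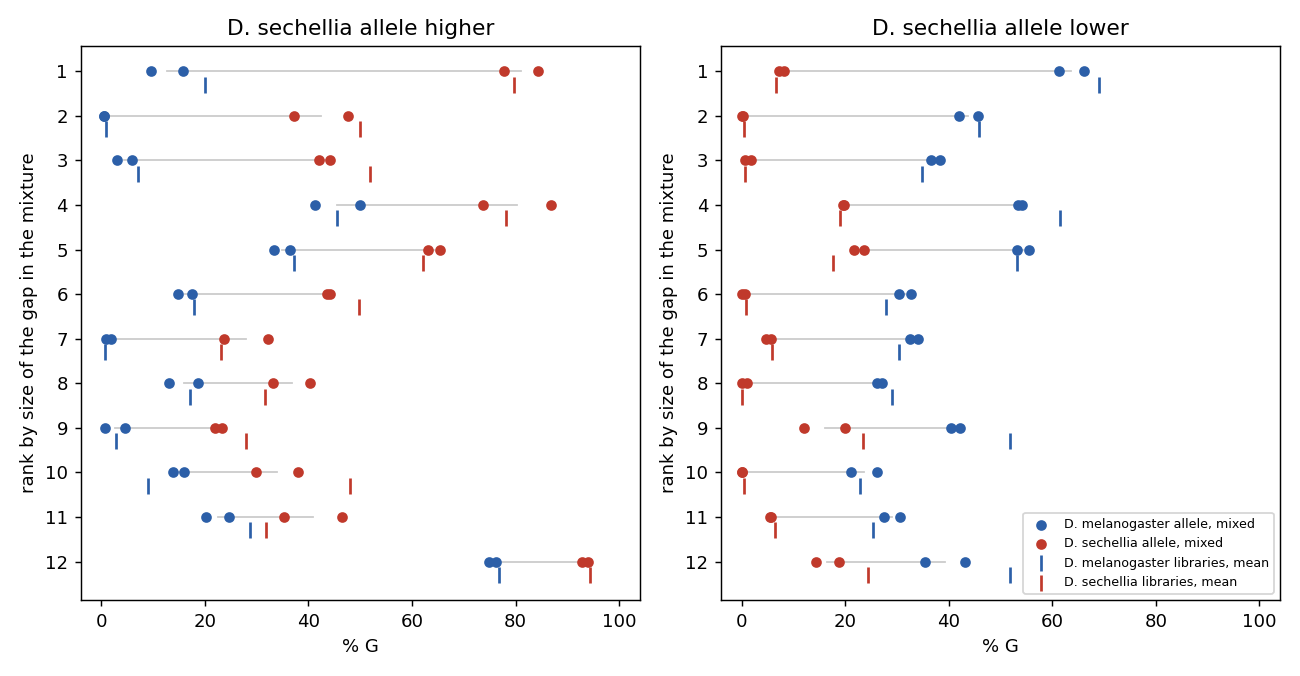
Editing level (% G, 0 to 100) of both alleles at the 24 named sites, 12 in favour of D. sechellia and 12 in favour of D. melanogaster, in order of gap; dots are the 2 mixed libraries for each allele (blue D. melanogaster, red D. sechellia), grey lines join the allele means, and ticks are the mean of the own-species libraries. In each of the 24 sites the dots of the alleles do not overlap.

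At 13 sites past the threshold 1 allele was edited under 1%, pooled over both libraries, and the other at 10% or more. The D. sechellia allele was the low one at 10 of them and the D. melanogaster allele at 3. At 2L 1609982 the D. melanogaster allele was edited at 26.2% and 21.2%, and the D. sechellia allele had 0 G reads of 137, which allows a level of up to 2.19%. At 2L 13187842 the corresponding values were 27.2% and 26.1% against 1 G read of 174. The 3 low D. melanogaster alleles were at 2L 20872840, 3R 10642469 and X 13608078, with means of 42.4%, 15.8% and 10.4% on the D. sechellia allele. At 3R 10642469 the low level rests on 1 G read of 125. The pooled D. melanogaster libraries gave 2.86% there, against 0.839% at 2L 20872840 and 0.311% at X 13608078. All 13 are described with their gap already known to pass, so the list is no separate result.

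Neighbouring sites went the same way in most clusters and opposite ways in some. Of the 24 clusters with at least 2 sites past the threshold, 6 had all of them higher in D. sechellia, 10 had all of them lower, and 8 had both. The richest was a stretch of 170 bases, 3R:1061931-1062100, where 10 of 11 tested sites passed, 2 higher and 8 lower. Within it the D. sechellia allele was higher at 1062051 (17.6% and 14.8% against 43.6% and 44.1%) and at 1062054, and then almost unedited at 1062097 and 1062100. The neighbour 1062050, 1 base before 1062051, went the other way, at 5.42% and 4.33% on the D. melanogaster allele against 0.917% and 1.01% (gap -3.92 ± 0.834; adjusted p = 0.00467, quasi-binomial regression). Sites this close can be read on the same molecules and are not independent measurements.

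On 2L between 3761991 and 3762410, 5 of 6 tested sites passed, 2 higher and 3 lower. Sites 3762337 and 3762371 had gaps of -34.2 and 29.4 points. On X between 1267561 and 1267739, 5 of 13 passed, among them 1267594 with its gap of 68.4 points and 1267561 with -16.1 ± 5.34 (26.9% and 38.0% against 14.5% and 18.1%; adjusted p = 0.024, quasi-binomial regression). On 2L between 13187691 and 13188408, 3 of 6 passed: 13187691 was edited at 0.971% and 1.80% against 23.8% and 32.2%, and 13187842 in the reverse sense. At X 13608022, 13608063 and 13608078, all 3 tested sites passed, with gaps of -10.4 ± 0.636, -7.13 ± 0.293 and 9.91 ± 2.35. Each of these loci held sites past the threshold in both directions.

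**Figure D3:**
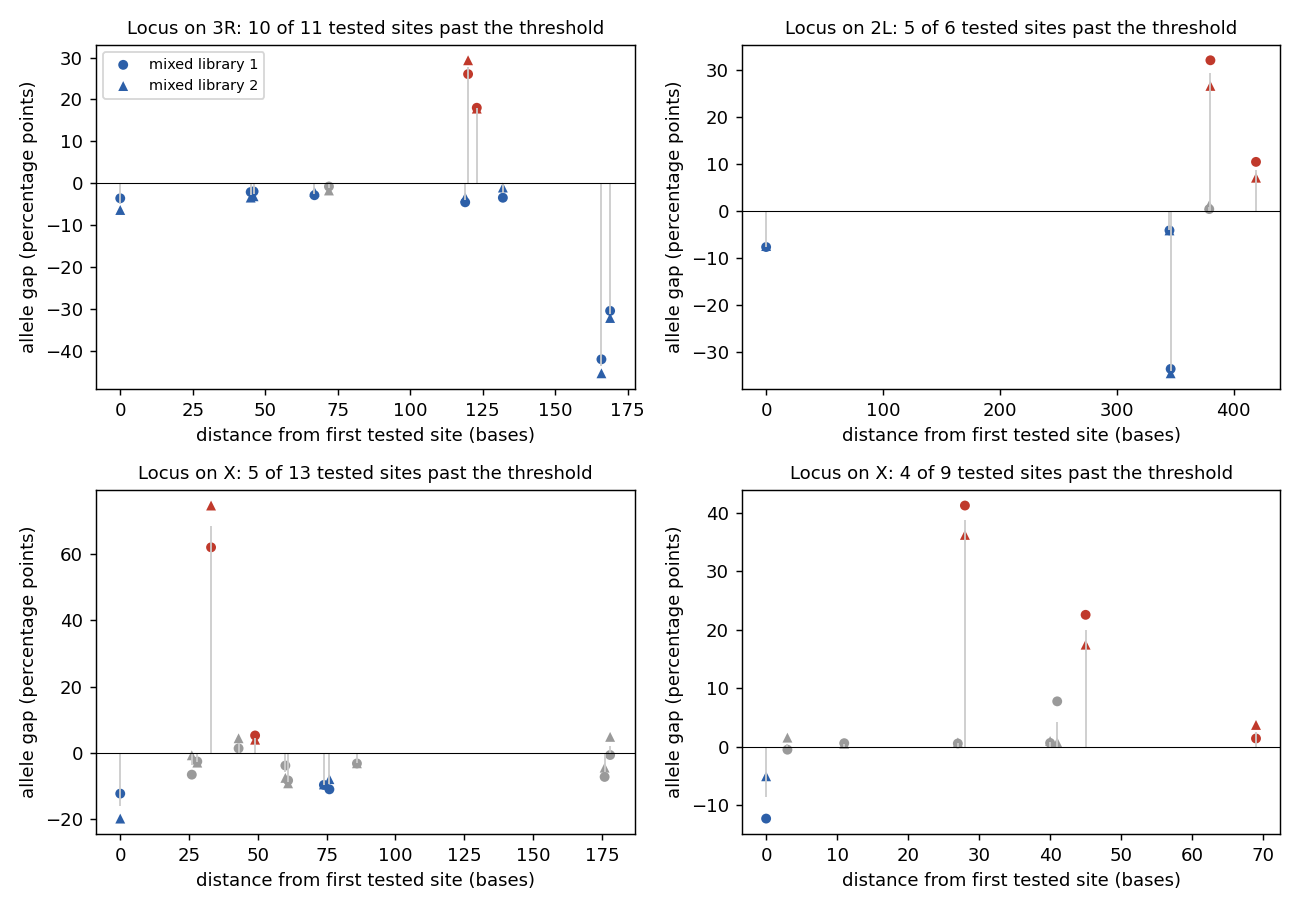
Gap between alleles (vertical axis, percentage points, D. sechellia minus D. melanogaster) along 4 loci where sites past the threshold go both ways; the horizontal axis is the distance in bases from the first site, circles are the first mixed library and triangles the second, red marks sites past the threshold in favour of D. sechellia, blue those in favour of D. melanogaster and grey the rest, and grey lines reach to the mean of both libraries. In the 3R locus 2 sites are higher and 8 lower.

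Direction was also counted between consecutive sites past the threshold in a cluster, passing over any other sites between them. Among 48 pairs of neighbouring sites past the threshold in a cluster, 37 had the same direction, and within 10 bases this was so for 18 of 20. These counts are a description, since neighbours can share reads, and the same share over all pairs of tested sites was not counted.

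Sites past the threshold made up different shares by level and arm. By mean level of both alleles, they were 22 of 184 sites under 5% (12%), 52 of 150 from 5% to 20% (34.7%), 27 of 99 from 20% to 50% (27.3%) and 6 of 58 at 50% or more (10.3%). At 2L 16174153, the highest that did not pass, the alleles were edited at 93.8% and 89.0% against 93.5% and 97.5%. By arm, 22 of 68 passed on 2L (32.4%), 23 of 80 on X (28.8%), 28 of 132 on 3R (21.2%), 16 of 91 on 3L (17.6%), 16 of 116 on 2R (13.8%) and 2 of 4 on chromosome 4. No test was made between classes, since coverage and level differ between them and neighbouring sites can share reads. The 84 sites under 1% were not tested, and their gaps were at most 2.00 points.

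At a typical tested site the libraries' gaps differed by about as much as the gap itself. Over 491 sites the gaps of the first and the second library had Pearson r = 0.798 and Spearman rho = 0.589, and the sign was the same at 351. These points share the alleles' reads within each library and differ in coverage. The median difference between the libraries was 3.32 points for the gap, against a median gap, without sign, of 3.13, and was 2.29 for the D. melanogaster level and 2.00 for the D. sechellia level. All 107 sites past the threshold had the same sign in both libraries, as their alleles did not overlap. At 4 of the 107 the libraries' gaps nevertheless differed by more than the mean gap. An example, chosen after its values were seen, is 2L 5363761, where the alleles were edited at 41.9% against 43.0% in the first library and at 27.3% against 55.8% in the second. The largest gap that did not pass was at 3L 20516600, at 23.7% and 31.8% against 38.2% and 47.8% (gap 15.2 ± 1.07; adjusted p = 0.0612, quasi-binomial regression).

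**Figure D4:**
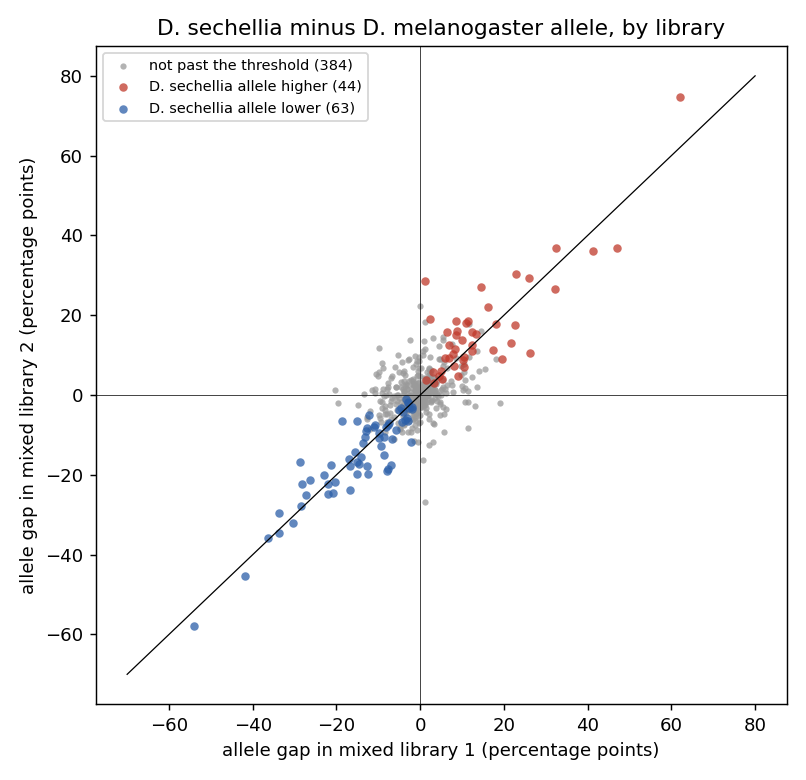
Gap between alleles in the second mixed library (vertical axis) against the first (horizontal axis), both in percentage points, for 491 tested sites, with the line of equal gaps; red and blue are the 44 and 63 sites past the threshold and grey the other 384. All 107 coloured points have the same sign in both libraries.

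Separately prepared D. melanogaster and D. sechellia libraries gave the same direction at nearly all of these sites. The gap in the mixture did not use their reads, but the rule left out 27 sites by their pooled levels. Each allele was edited in its own species' cells in both kinds of library. In the separate libraries 212 of 479 tested sites (44.3%) differed between the species, with D. sechellia higher at 95 (19.8%) and lower at 117 (24.4%). Over the 465 sites tested both ways, 103 passed in the mixture and 211 in the separate libraries, and 97 passed in both, all with the same sign. These are 94.2% of the calls in the mixture and 46.0% of those in the separate libraries. Reads per allele, residual degrees of freedom and the block differ between these fits, and their part in the counts was not tested. The gaps of all 465 sites had Pearson r = 0.896 and Spearman rho = 0.781. The median change, without sign, was 1.94 points, and 20 sites changed by at least 10.

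The named sites kept their sign. At X 1267594 the separate libraries gave 18.8% and 21.1% in D. melanogaster and 78.8% and 80.7% in D. sechellia, a species gap of 59.8 points against 68.4 in the mixture. At 3L 21327037 they gave 72.6% and 65.4% against 6.92% and 6.45%, or -62.3 points against -56.0. Of the 24 named sites, 23 had enough own-species reads to be tested. All 23 had the same sign, 22 passed, and 11 had the smaller gap in the mixture. The widest change among them was at 2R 17508581, with a species gap of 39.1 points against 19.1 in the mixture. That change did not pass (adjusted p = 0.135, quasi-binomial regression). The exception without a separate call was 2L 18182220, where the species gap was 3.06 points (29.4% and 27.9% against 32.4% and 31.0%). The site without a test, 2L 20872840, had 26 reads in the D. sechellia libraries together.

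**Figure D5:**
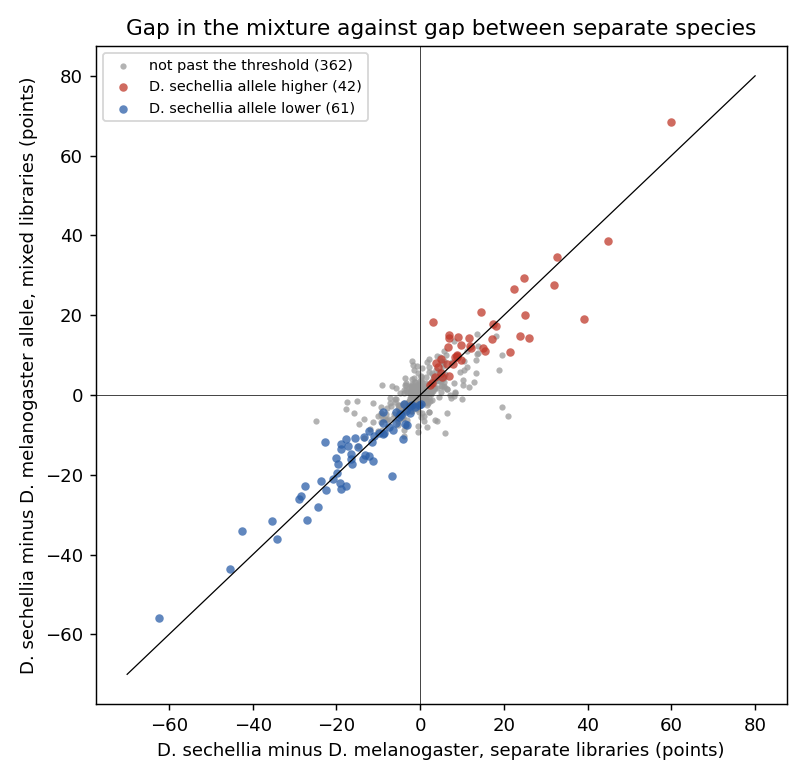
Gap between alleles in the mixed libraries (vertical axis, percentage points) against the gap between the separate species libraries (horizontal axis, percentage points) for 465 sites tested both ways, with the line of equal gaps. Of the 103 coloured sites past the threshold in the mixture (42 red, D. sechellia higher; 61 blue, D. sechellia lower), 102 have the same sign on both axes.

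Of the 103, 6 did not pass in the separate libraries. Among these, 3L 9826557 had the opposite sign there, but both gaps were small (-2.36 ± 0.827 in the mixture, 0.167 between the species). In turn, 114 sites passed in the separate libraries and not in the mixture, with median gaps, without sign, of 6.07 and 3.15 points, and 103 of these had the same sign. Over all 211 species calls, the median species gap was 8.77 points and the median gap in the same direction in the mixture 6.21. These medians are from sites chosen by the separate libraries.

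No site had a change of gap between mixture and separate libraries past the threshold (0 of 479, 0%) in the quasi-binomial regression. That regression tests the change on the log-odds scale, while the gaps below are in points. The smallest adjusted p was 0.123, the unadjusted p was under 0.05 at 29 sites, and limma also passed 0. The widest change among tested sites was at 2L 5363749, named after its values were seen. There the D. melanogaster allele was edited at 77.8% and 70.4% in the mixture and 62.4% and 60.4% alone, and the D. sechellia allele at 66.2% and 71.6% in the mixture and 83.6% and 81.4% alone. The gap went from 21.1 points alone to -5.17 ± 9.01 in the mixture. A p that misses the threshold does not show that the gaps are equal, and the count of 0 changed with the libraries and sites used: without the first D. sechellia library 9 sites passed, without the second 2, and with the sites of 95% or more kept in 5.

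Each allele was also set against the libraries of its own species. The D. melanogaster allele differed at 2 of 479 sites (0.418%), 1 higher (0.209%) and 1 lower (0.209%), and the unadjusted p was under 0.05 at 58. At 3L 4369162 it rose, from 29.0% and 26.7% in D. melanogaster libraries to 54.3% and 47.2% in the mixture (adjusted p = 0.00242, quasi-binomial regression). The D. sechellia allele of this site was at 46.6% and 49.2% in the mixture and 41.1% and 53.6% alone, so the alleles overlapped in the mixture while the species did not alone. At 3R 482227 the D. melanogaster allele fell, from 25.1% and 31.8% to 16.1% and 10% (adjusted p = 0.0071, quasi-binomial regression). Limma passed neither site, and without the second mixed library 6 sites passed. The D. sechellia allele passed at 0 of 479 sites (0%) in the quasi-binomial regression and by limma, while the unadjusted p was under 0.05 at 34. Without the first D. sechellia library 11 sites passed, without the second 3, and without the second mixed library 1. The 2 D. sechellia libraries were far apart at some of the sites behind these counts, as in 2 examples chosen after their values were seen. At 3R 5492569 they gave 48.2% and 86.1%, against 44.9% and 59.4% in the mixture. At 3R 26872226 they gave 40% and 70.4%, against 27.3% and 39.2%. The median of mixture minus own species was -0.464 points for D. melanogaster and -0.148 for D. sechellia.

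In F1 hybrids, where the alleles share cells, the sites past the threshold in the mixture and tested both ways kept the sign of their gap. The F1 and the mixed libraries share no reads. Of 446 sites tested in both, 101 passed in the mixture, and all 101 had the same sign in F1. Their median gap was 12.4 points in the mixture and 9.77 in the same direction in F1, and 29 of the 101 were wider in F1. These medians are from sites chosen by the mixture, a choice that can make gaps smaller in other libraries. Its part in the narrower F1 gap was not tested. For the 103 sites past the threshold in the mixture and tested in the separate libraries, the median gap, without sign, was 12.3 points in the mixture. Between the separate species it was 12.1, and 58 of the 103 were wider in the mixture. Over all 446 the gaps had Pearson r = 0.878 and Spearman rho = 0.713. X 1267594 had a gap of 74.9 ± 4.60 points in F1 (SD, n = 3), 3L 21327037 one of -61.7 ± 2.43, and 3R 1062097 one of -66.5 ± 3.60 against -43.6 ± 2.36 in the mixture. At 2L 20872840 the D. sechellia allele was at 0%, 0% and 41.6% in the 3 F1 libraries (gap 13.5 ± 23.8 against 41.9 ± 7.30 in the mixture), so its F1 gap rests on 1 library. It had too few F1 reads for the test and is not among the 446. At 3R 1062054 the F1 gap was 4.82 ± 4.14 against 17.9 ± 0.146. A change of gap between F1 and mixture passed at 0 of 460 sites (0%) in the quasi-binomial regression with the library as a block. There the smallest adjusted p was 0.0864 and the unadjusted p was under 0.05 at 46 sites, and limma passed 1. The regression tests a change on the log-odds scale, so the count of 0 does not cover changes in points. At 3R 1062097, where the gap widened in points, the adjusted p of this regression was 0.869.

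Libraries of a single species also held reads assigned to the other species, and whether these are misassigned or carried over was not tested. D. melanogaster libraries held 2.10% and 2.08% of reads assigned to D. sechellia, and D. sechellia libraries held 3.76% and 1.29% assigned to D. melanogaster. At the 575 sites the median was 0.185% and 0.175%, and 517 sites were under 1% in both species. Past the threshold were 96 of 440 tested sites under 1% (21.8%) and 11 of 51 at 1% or more (21.6%). The site 2L 12724897 stands out, since 73.7% of reads in D. melanogaster libraries were assigned to D. sechellia there, though these libraries held few reads at the site. Its gap in the mixture was -8.87 ± 3.04 points (27.1% and 24.04% against 20.3% and 13.02%; adjusted p = 0.0425, quasi-binomial regression), and the part of read assignment in it was not tested.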

How the data were processed

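Per the file headers, the authors deposited for each library a table of sites with A and G read counts assigned to each species, and an editing percent for each allele. The deposited counts are whole numbers without normalization, and the percent they deposited matches the G share within 0.06 points in 20603 of 20603 values that have reads; it is listed as 0 in the 4787 without, so levels were computed from counts. Per the submitters' processing notes, reads were aligned with BWA and positions are in dm3. Not given in the sources used here are the BWA version, how reads were assigned to a species, and how sites were selected. Groups and replicates were taken from the sample titles.

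G and A reads of each site entered a quasi-binomial logistic regression (R 4.3.3). Pearson dispersions were raised to at least 0.05, squeezed on a trend with coverage (limma 3.58.1, squeezeVar) and set to at least 1. Deviance F tests were adjusted by Benjamini-Hochberg over all sites tested, with a threshold of 0.05. The allele gap in the mixture and its change in F1 kept the library as a block (1 and 3 residual degrees of freedom per site). Both fits took 1 spread for all sites of like coverage, so their F tests pooled the residual degrees of freedom over sites. Changes of gap were tested as interactions on the log-odds scale, while gaps are given in points. The change against separate libraries, the contrasts of an allele with its own species and the species difference came from 1 fit without a block (4 residual degrees of freedom). Sites needed 50 reads in every library or allele compared and a mean level of 1%.

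The design named no dispersion floor. The first run used 0.0001 and passed 4 sites for the allele gap, against a larger count known from earlier work on these data. The dispersions were then inspected and 4 floors (0.0001, 0.001, 0.01 and 0.05) were tried on simulated counts, and 0.05 was taken. It kept false calls under the threshold in simulations where the true spread varied little between sites, but not where it varied widely. The choice was therefore made after seeing the data, and counts at all 4 floors are given.

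The named sites are the 12 largest gaps in each direction past the threshold whose alleles do not overlap between libraries, at most 2 per cluster, and, for an allele against its own species, up to 3 in each direction. Sites named outside this rule were chosen after their values were seen. The sites compared, the lists and the tests were chosen with earlier results of these data known. Planned lists of edited genes were not used here, because sites carry no gene names. Alternatives were coverage minimums of 20 and 100, level minimums of none and 5%, an own-species maximum of 90% or none, limma, a Cochran-Mantel-Haenszel test, thinning, F1 libraries in the fit, blocks, and leaving out each library.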

Additional observations from a re-analysis of the deposited data

Results flagged for a closer look

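At 2L 12724897 the gap in the mixture was -8.87 points, with both libraries below 0, while every comparison between separate libraries ran the other way (17.3 points). The difference between these gaps was not tested, since the D. melanogaster libraries held 5 own-species reads at this site together and 73.7% of reads there were assigned to D. sechellia.

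Reads assigned to the other species appeared in libraries of a single species, above the limit that a count of 0 allows. They made up 2.10% and 2.08% of the reads in D. melanogaster libraries and 3.76% and 1.29% in D. sechellia libraries. Of the 575 sites, 517 had under 1% of such reads in both species, and with sites of 1% or more left out 100 sites passed for the allele gap.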

How the results depend on the processing

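Over the 19 alternatives to the allele gap count of 107, the count ran from 4 to 134. At a dispersion floor of 0.0001 it was 4, with 1 in favour of D. sechellia and 3 against. With 100 reads required, 28 sites favoured D. sechellia, and 1 change of gap against separate libraries, 7 D. melanogaster contrasts and 127 species differences passed, over fewer sites. Limma passed 0 D. melanogaster contrasts and 1 change of gap in F1. With sites of 95% or more kept in, 5 changes of gap, 5 D. melanogaster and 2 D. sechellia contrasts passed. Leaving out a library gave 70 to 76 allele gaps (26 to 34 in favour of D. sechellia, 42 to 44 against), 0 to 9 changes of gap, 2 to 6 D. melanogaster and 0 to 11 D. sechellia contrasts. Some of these settings used fewer sites or libraries and others did not, and the cause of the shifts was not tested. As medians over sites the levels were 6.18% (D. melanogaster) and 4.98% (D. sechellia), a difference of -1.20 that is not a median of gaps paired by site. With 20 reads required the D. melanogaster mean was 15.6%. The 24 named gaps kept their direction in the alternatives run for single sites, which was fixed in advance. Their alleles were chosen to be separate in both libraries, and the gaps came from the same mixed libraries. Directions of other sites were not followed.

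The replicate block for separate and mixed libraries gave 4 changes of gap, 14 D. melanogaster contrasts (2 higher, 12 lower) and 1 D. sechellia contrast. Equal numbers there are not known to pair libraries: deviations of equal-numbered libraries had r = 0.0353 for D. melanogaster with its mixed allele, 0.342 for D. sechellia with its own, and -0.0295 between the species. Without the library block the allele gap passed at 122 sites.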
